A study of Mus musculus with 2 samples.

Results

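The genes described here are 10 acid-base transport genes of the intercalated cells of the kidney, chosen by name: the proton pump subunit genes *Atp6v1b1*, *Atp6v0a4* and *Atp6v1g3*, the anion exchanger genes *Slc4a1*, *Slc4a9* and *Slc26a4*, the ammonia channel genes *Rhcg* and *Rhbg*, the carbonic anhydrase gene *Car2*, and *Foxi1*. All gene probes carrying one of these names were taken, which gave 11 of 39416 probes and 10 of 31821 gene names on the array. Total RNA was taken from the kidneys of mice at an age of 2 months, of the genotype Cnnm2fl/fl;Six2-Cre for the knockout and Cnnm2+/+;Six2-Cre for the control. It was hybridized to 2 Agilent arrays of 2 colours, with the knockout in Cy5 and the control in Cy3 on array 1, and the dyes exchanged on array 2. Both groups carry the Six2-Cre transgene, which drives Cre recombinase, fused to GFP, in the kidney of the embryo, so they differ in whether *Cnnm2*, a gene for a magnesium-handling membrane protein, can be deleted. Six2 marks the progenitors of the nephron, whereas the collecting duct arises from the ureteric bud. The study's methods name male and female mice matched for age and sex, but the sex and number of those behind the arrays, and whether both arrays carry the same RNA, are not given in the sources used here. Each genotype was therefore counted as 1 replicate and no result below rests on a test between genotypes. Every SD given after ± is that of the 2 arrays, which covers labeling and hybridization.

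Intercalated cells are scattered through the connecting tubule and the collecting duct. Type A cells secrete protons into the urine through a vacuolar proton pump (V-ATPase) and return bicarbonate to the blood through the exchanger AE1, whereas type B cells secrete bicarbonate through pendrin. Carbonic anhydrase 2 supplies the protons and the bicarbonate, Rh glycoproteins carry ammonia, and the forkhead factor FOXI1 is required for these cells to form.

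The probe for *Cnnm2* gave a log2 ratio of knockout over control of -2.88 on array 1 and -2.46 on array 2, in the direction of the labels. All 10 genes of a list of kidney markers were well above background. The array ratios were negatively correlated across genes (Pearson's r = -0.51 over 19707 genes, which are not independent replicates). For each probe, the mean of both log2 ratios was taken as the genotype difference. A dye effect cancels in it only where it is of the same size on both arrays, which was not tested. The dye term (log2 Cy5 over Cy3) is the part that follows the dye. Across genes, the SD was 0.23 for the mean ratio and 0.40 for the dye term. Among 399 probes printed at least 5 times, the spots of one probe differed by a median SD of 0.050 and 0.047 on the arrays.

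The 11 probes are single spots. Each was well above background in all 4 channels, and none was saturated or marked as an outlier. By the processed signal, they spanned from 217 for *Atp6v1b1* to 29816 for *Car2*. Signals of different probes cannot be ranked as transcript levels, because they also depend on the probe. Probe positions below are those of the mm9 build in the files, which name no exon or UTR for a probe.

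In the knockout sample, 7 of the 10 genes gave a lower signal on both arrays (*Atp6v0a4*, *Slc4a1*, *Slc4a9*, *Slc26a4*, *Rhcg*, *Rhbg* and *Foxi1*) and 0 gave a higher signal on both. Of the 19707 genes tested, 27.7% had one direction on both arrays, 15.6% being lower and 12.1% higher. Among the genes with a signal at or above the median, a background chosen after seeing the data, the shares were 14.0% and 11.4%. The ratios of the other 3 genes, *Atp6v1b1*, *Atp6v1g3* and *Car2*, changed direction with the dyes. With background-subtracted signals centred on the median, 4 of the 10 were lower on both arrays, against 13.1% of all genes tested, since *Slc4a1*, *Slc4a9* and *Rhbg* were then slightly above 0 on array 1. The 7 lower genes differed by small amounts, with mean log2 ratios from -0.51 to -0.18. None of the 10 passed a 1.5-fold limit with one direction on both arrays, against 2.06% of the genes tested (1.06% lower and 1.0% higher). None passed a 2-fold limit, against 0.599% (0.284% lower and 0.315% higher). The median of the 10 mean log2 ratios was -0.20, with array medians of -0.16 and -0.31. Over all genes tested it was -0.01, and the 5th and the 95th percentiles of the genes were -0.32 and 0.29. In whole-kidney RNA, fewer intercalated cells and less RNA per cell cannot be told apart. The part of other cell types in these values was not tested.

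**Figure D1:**
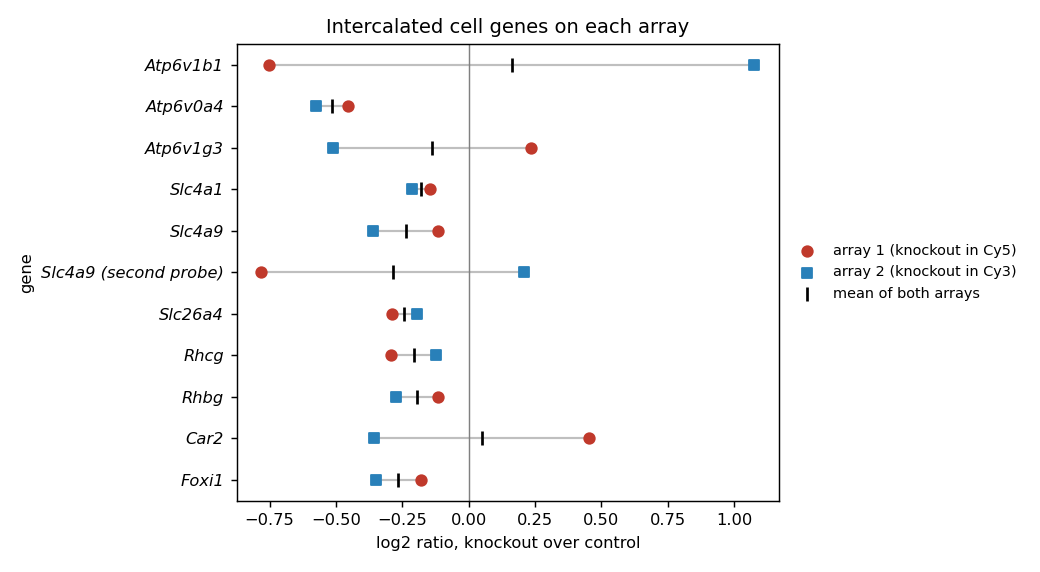
Log2 ratio of knockout over control (x axis) for each probe of the 10 genes (y axis) on array 1 (circles) and array 2 (squares), with the mean of both as a black tick. The array values of 7 genes lie close together below 0, whereas those of *Atp6v1b1*, *Atp6v1g3*, *Car2* and the second *Slc4a9* probe lie on opposite sides of 0.

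The V-ATPase subunits that intercalated cells use in place of their widely expressed relatives did not share a pattern. *Atp6v0a4* encodes the a4 subunit of the membrane sector, and its probe lies on the minus strand of chromosome 6 (37998490 to 37998549). On array 1 the processed signal was 9757 for the knockout and 13368 for the control, and on array 2 it was 6646 and 9901. The knockout was lower than the control on each array, although the knockout of array 1 was close to the control of array 2, so that the genotypes are separated within arrays and barely across them. The log2 ratios were -0.45 and -0.58, a mean of -0.51 ± 0.085 (SD of the 2 arrays), or a ratio of 0.70. This was the lowest mean among the 10 genes, and 1.72% of the genes tested had a lower one.

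*Atp6v1b1* encodes the B1 subunit, a nucleotide-binding part of the catalytic sector, and its probe lies on the plus strand of chromosome 6, within 83706880 to 83707858. The knockout gave a signal of 302 and the control 508 on array 1, against 459 and 217 on array 2. The Cy3 channel was brighter each time, whichever genotype it held. The log2 ratios of -0.75 and 1.08 gave a mean of 0.16 ± 1.29 and a dye term of -0.91, so that no genotype difference could be read for this subunit. *Atp6v1g3* encodes the G3 subunit of the stalk, and its probe lies on the plus strand of chromosome 1 (140185743 to 140185802). The knockout signal was 341 beside a control of 290 on array 1, and 220 beside 314 on array 2. Here the Cy5 channel was brighter each time. The log2 ratios were 0.24 and -0.51, with a mean of -0.14 ± 0.53 and a dye term of 0.37. Over all genes tested, the direction turned with the dyes in 33.6% with Cy3 brighter and in 38.7% with Cy5 brighter.

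Probe letters are shown for a gene that followed Cy3, one that followed Cy5, and 2 that followed neither. They run 5′ to 3′, as the whole 60 bases for *Atp6v1b1* and the first 30 of 60 for the others. Base content cannot be compared from the first 30 letters, whose G and C share differs from that of the whole probe. The share of G and C bases over the whole probe was 55% for *Atp6v1b1*, 35% for *Atp6v1g3*, 35% for *Atp6v0a4* and 43.3% for *Rhcg*.
Atp6v1b1: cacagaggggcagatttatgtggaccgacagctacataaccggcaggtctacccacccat
Atp6v1g3: gtgccactatacctcttcccagtgttagat
Atp6v0a4: cctcacctgaagttcctgcagtatttcaag
Rhcg: tgctccccaacaatgtatttcccatgttcc

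Over all genes tested, G and C content and the dye term were weakly related (Pearson's r = -0.22 across 19707 probes of the same 2 arrays, as a description). The median dye term was 0.10 for 5029 probes at up to 35% G and C, and -0.08 for 3860 probes above 45% and up to 55%. The dye terms of *Atp6v1b1* and *Atp6v1g3* had the sign of their class and were larger than its median. In the class of *Atp6v1b1*, the brightest probes of *Rhbg* (0.08), *Slc4a1* (0.03) and *Slc4a9* (0.12) had the opposite sign. The dimmer *Slc4a9* probe, at -0.49, had the sign of the class. *Atp6v0a4*, at the same G and C content as *Atp6v1g3*, had a dye term of 0.06. Between base content and the mean ratio, r was -0.01.

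**Figure D2:**
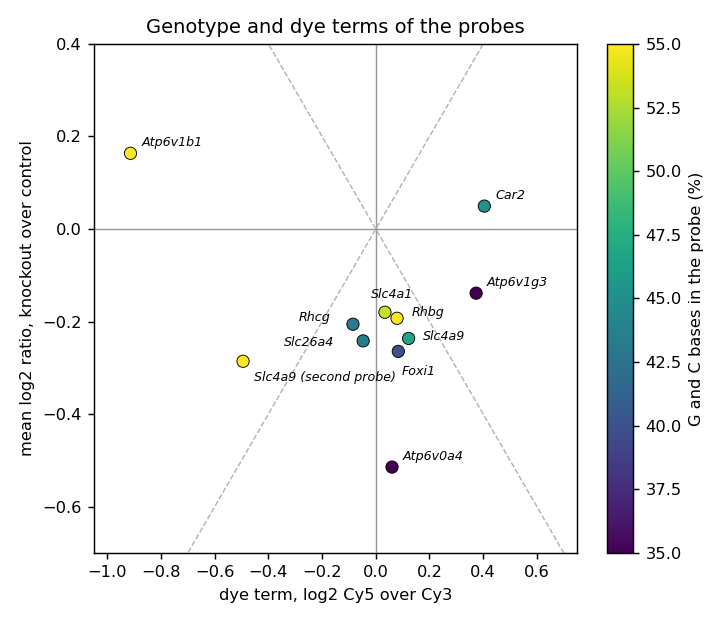
Mean log2 ratio of knockout over control (y axis) against the dye term, log2 Cy5 over Cy3 (x axis), for the 11 probes, coloured by the G and C content of the probe in percent. Between the dashed lines on the left or right the dye term is larger than the genotype mean, as for *Atp6v1b1* at a dye term of -0.91 and a mean of 0.16, and below them the mean is larger, as for *Atp6v0a4* at 0.06 and -0.51.

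The other V-ATPase subunits and accessory proteins were set beside these 3. Most are widely expressed, but some, such as *Atp6v0d2* and *Atp6v1c2*, are isoforms of few tissues, the kidney among them. Of 22 genes, 21 were measured, all but *Atp6v1e2*. Their median mean log2 ratio was 0.05. On both arrays 2 were lower (against 15.6% of all genes tested) and 3 higher (against 12.1%), while 16 turned with the dyes. None passed the 1.5-fold limit, against 2.06% of all genes tested. The means ran from -0.18 for *Atp6v0d2*, a subunit of the membrane sector, to 0.33 for *Atp6ap2*, an accessory protein of the pump, and both of these genes turned with the dyes. *Atp6v1c2* was one of the 2 that were lower on both arrays (-0.09 and -0.22). The closest relatives of the a4 subunit were *Atp6v0a1* at a mean of 0.06, *Atp6v0a2* at 0.06 and *Tcirg1* (the a3 subunit) at 0.09, against -0.51 for *Atp6v0a4*. However, *Atp6v0a1* (-0.17 and 0.28) and *Atp6v0a2* (-0.14 and 0.26) turned with the dyes, so no genotype difference could be read for them. *Tcirg1* was slightly higher on both arrays (0.13 and 0.05). *Atp6v1b2*, the B subunit of most other tissues, had a mean of -0.07 and log2 ratios of -0.66 and 0.52, turning with the dyes in the same way as *Atp6v1b1*.

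All 3 anion exchanger genes were lower in the knockout on both arrays, with differences between -15.4% and -11.7%. *Slc4a1* encodes AE1, the basolateral exchanger of type A cells, which is also the band 3 protein of red blood cells. Its probe lies on the minus strand of chromosome 11 (102210256 to 102210315). Array 1 gave 2271 for the knockout and 2513 for the control, and array 2 gave 1837 and 2131. The log2 ratios were -0.15 and -0.21, with a mean of -0.18 ± 0.048. *Slc26a4* encodes pendrin, the apical exchanger of type B cells, with a probe on the minus strand of chromosome 12 (32204766 to 32204825). The knockout signal of 8318 stood beside a control of 10162 on array 1, and 7155 beside 8189 on array 2. Log2 ratios of -0.29 and -0.19 gave a mean of -0.24 ± 0.067. In both genes the control of array 2 was below the knockout of array 1, so the genotypes overlap when the arrays are pooled and separate only within an array.

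*Slc4a9* encodes AE4, a basolateral transporter of type B cells, and had 2 probes on the plus strand of chromosome 18. With the brighter probe, the knockout had 1970 and the control 2132 on array 1, and 1594 and 2044 on array 2. Its log2 ratios were -0.11 and -0.36, with a mean of -0.24 ± 0.17. The dimmer probe gave 351 and 603 on array 1, and 434 and 375 on array 2. Its mean of -0.29 ± 0.70 was similar, but its log2 ratios of -0.78 and 0.21 turned with the dyes. Thus the lower *Slc4a9* signal on both arrays rests on 1 of the 2 probes.

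Both ammonia channel genes were lower on both arrays. *Rhcg* encodes the channel of the apical and basolateral membranes, with a probe on the minus strand of chromosome 7 (86738278 to 86738337). The knockout reached 9968 and the control 12195 on array 1, and they reached 9758 and 10611 on array 2. Both knockout values were below both control values. The log2 ratios were -0.29 and -0.12, with a mean of -0.21 ± 0.12, or a difference of -13.3%. *Rhbg* encodes the basolateral channel, with a probe on the minus strand of chromosome 3 (88047265 to 88047324). Here the knockout gave 4634 and the control 5015 on array 1, and 4025 and 4860 on array 2. These were also separated, with the knockout lower. The log2 ratios of -0.11 and -0.27 gave a mean of -0.19 ± 0.11, or a difference of -12.5%.

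*Foxi1* encodes a transcription factor that is found in the kidney in intercalated cells, and its probe lies on the minus strand of chromosome 11 (34104352 to 34104411). Signals of 2993 for the knockout and 3392 for the control were measured on array 1, and 2241 and 2853 on array 2. The knockout was lower on each array, while the control of array 2 was below the knockout of array 1. The log2 ratios were -0.18 and -0.35, with a mean of -0.26 ± 0.12, or a difference of -16.8%. Among the 10 genes only the mean of *Atp6v0a4* was lower.

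*Car2*, the brightest of the 10, encodes the cytosolic carbonic anhydrase of intercalated cells, which proximal tubule cells and red blood cells also contain. Its probe lies on the plus strand of chromosome 3 (14900206 to 14900265). On array 1 the knockout gave 29816 and the control 21769, while on array 2 they gave 20144 and 25760. The Cy5 channel was the brighter one each time. Log2 ratios of 0.45 and -0.35 resulted, so the mean was 0.05 ± 0.57 and the dye term 0.40, and no difference between genotypes could be read.

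**Figure D3:**
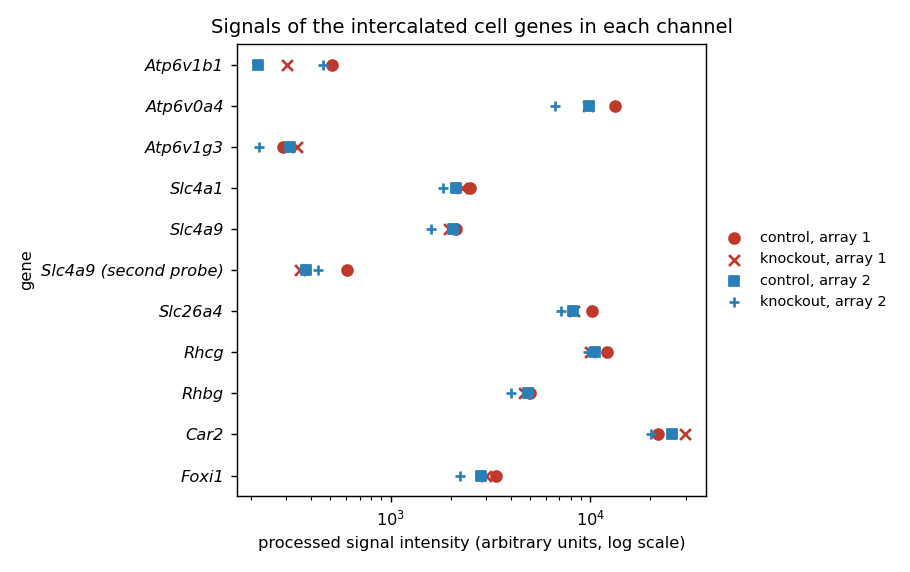
Processed signal intensity (x axis, arbitrary units on a log scale) of each probe (y axis) in the control and knockout channels of array 1 (circles and diagonal crosses) and array 2 (squares and upright crosses). The knockout symbol lies left of the control symbol of the same colour on both arrays for 7 genes, and the shift is widest for *Atp6v0a4*, from 13368 to 9757 and from 9901 to 6646.

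RefSeq promoter sequences (GRCm38.p6, 250 bases before to 50 bases after the gene start) were held for 6 of the 10 genes, *Atp6v0a4*, *Atp6v1b1*, *Atp6v1g3*, *Foxi1*, *Rhcg* and *Slc26a4*. Because FOXI1 is a forkhead factor and several of these genes were lower together, the forkhead letters TGTTTAC were searched on both strands. They were present in 1 of the 6, *Atp6v1b1*, against 3.65% of 32851 promoters. The shorter letters TGTTT, which the longer motif contains, were present on either strand in 4 of the 6, against 50.5% of all promoters. The window of the match, which starts 98 bases before the gene start, is at chr6:83742908-83742937 on the plus strand, with the motif in capitals.
Atp6v1b1 promoter: accagcttcccTGTTTACagtcaacctggc
The gene with this match turned with the dyes, and the 4 genes with a promoter sequence that were lower on both arrays do not have the 7 letters in this window. Such a match is a description of the sequence only.

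Other genes of the same cells were described in the same way. Of 20 other intercalated cell genes, 17 were measured. On both arrays, 10 of these were lower (against 15.6% of all genes tested) and 0 higher (against 12.1%), while 7 turned with the dyes. Their median mean log2 ratio was -0.21, close to the -0.20 of the 10 transport and *Foxi1* genes, and 0 passed the 1.5-fold limit. That median was -0.08 with normexp and loess, -0.04 on array 1 alone and -0.22 on array 2 alone. The counts of direction in this list were not made with background-subtracted signals. The means ran from -0.43 for *Hmx2*, which encodes a homeobox factor, to 0.02 for *Slc26a11*, an anion transporter gene. Genes lower on both arrays included *Kit*, a receptor tyrosine kinase gene, at -0.29, and *Bsnd*, which encodes barttin, at -0.22. The latter had log2 ratios of -0.23 and -0.22. *Aqp6*, which encodes an aquaporin of type A cells, had a mean of -0.11. *Bsnd* is also expressed in the distal nephron outside intercalated cells.

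Beside the counts of direction in the next lists, 15.6% of all genes tested were lower on both arrays and 12.1% higher. Genes for bicarbonate and ammonia handling in the proximal tubule had a median of 0.02 over 8 genes, with 2 lower, 2 higher and 4 turning with the dyes. The lowest mean was -0.32 for *Slc4a4*, the sodium bicarbonate cotransporter, and the highest 0.17 for *Glud1*, glutamate dehydrogenase. Principal cells are the neighbours of intercalated cells in the collecting duct. Of their 12 genes, 3 were lower on both arrays, 1 was higher and 8 turned with the dyes, with a median of 0.00 (-0.27 on array 1 and 0.10 on array 2). The higher one, *Elf5*, an ETS factor gene, passed the 1.5-fold limit at a mean of 0.72, with log2 ratios of 1.16 and 0.29. That limit was passed as higher by 1.0% of all genes tested. The 10 other proximal tubule genes had a median of 0.01, with 1 lower and 2 higher on both arrays, and means from -0.16 for *Slc22a8* to 0.21 for *Slc22a6*, both organic anion transporter genes.

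In the distal convoluted tubule list, 8 of 12 genes were lower on both arrays and 0 higher (against 15.6% and 12.1% of all genes tested), with a median of -0.34. Of these, *Pvalb* (-1.75), *Trpm6* (-1.40) and *Calb1* (-1.01) passed the 2-fold limit. The first 2 were picked by the study on these samples and are not independent evidence of the direction. For the thick ascending limb, 3 of 7 measured genes were lower and 1 higher, with a median of -0.07.

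Red blood cell genes were measured because red blood cells also contain AE1 and carbonic anhydrase 2. Of 14 listed, 12 were found by name and 8 were measured. *Rhag*, *Rhd* and *Spna1* were among those not well above background. On both arrays 2 were lower and 2 higher (against 15.6% and 12.1% of all genes tested), with a median of -0.16 (0.19 on array 1 and -0.21 on array 2). The lower ones were *Hbb-b1* (-0.21) and *Hbb-b2* (-0.22), the genes of beta globin chains. *Epb4.2*, a membrane skeleton gene, passed the 1.5-fold limit as higher at 0.71 (1.38 and 0.04). Its signals were dim, at 30.6 for the knockout and 11.8 for the control on array 1, and 17.4 and 17.0 on array 2. The summed signal of the 12 genes was 316222 for the knockout and 291443 for the control on array 1, and 194239 and 265846 on array 2. The part of red blood cells in the values of *Slc4a1* and *Car2* was not tested.

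**Figure D4:**
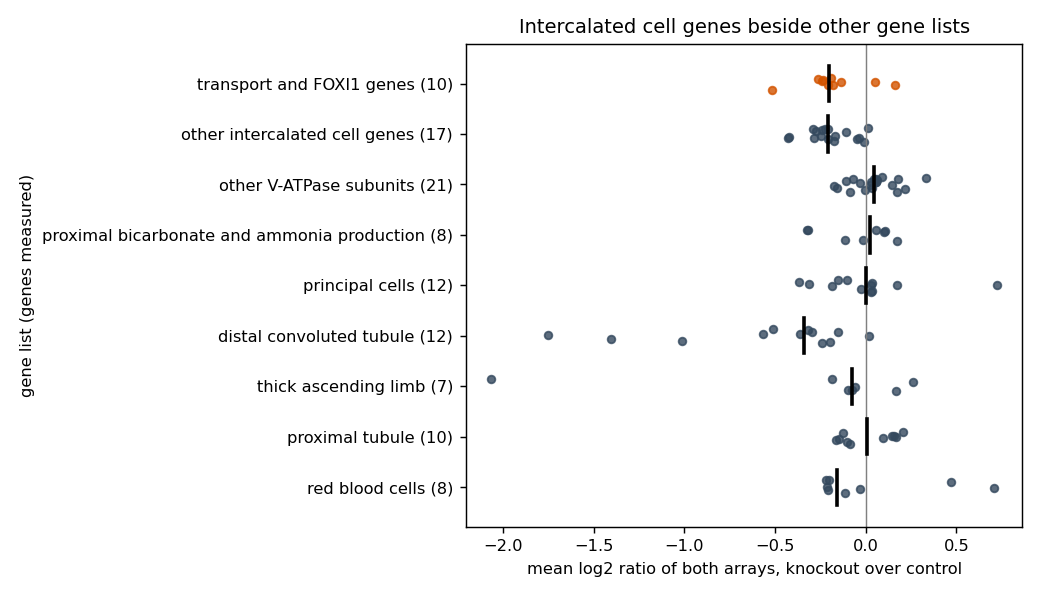
Mean log2 ratio of both arrays, knockout over control (x axis), of every measured gene (points) in the 10 transport and *Foxi1* genes (orange) and in 8 other lists (dark), with the median of each list as a black bar and the number of genes in parentheses. The medians of the transport and *Foxi1* genes (-0.20) and of the other intercalated cell genes (-0.21) lie below 0. Those of the distal convoluted tubule (-0.34), red blood cell (-0.16) and thick ascending limb genes (-0.07) also lie below 0. The medians of the principal cell (0.00), other V-ATPase (0.05), proximal bicarbonate and ammonia (0.02) and proximal tubule genes (0.01) lie at or above it.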

How the data were processed

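Kidney RNA of both genotypes was labeled in 2 colours and measured on 2 arrays that exchange the dyes. For each array, the authors deposited scanner intensities of Agilent Feature Extraction (10.7.3.1 in the file headers, 10.5.1.1 in the submitters' processing notes), in which background, spatial and dye trends of the array had been corrected, together with the log10 ratio of red over green. The deposited matrix holds a log10 ratio of knockout over control. Differences that the dyes cause can remain after this correction. Labels gave the dye of each genotype. No per-sample columns of other samples were found (0).

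Processed signals were taken to log2, without the spots that the software had marked (non-uniform, population outlier). The brightest probe stood for a gene. Genes were tested where the software called one genotype well above background on each array. Changed genes needed a mean of at least 2-fold (or 1.5-fold) with ratios of one sign. All 10 genes were named with every probe. Of the other lists, members past 1.5-fold were named, or otherwise the highest and the lowest. The relatives of the pump subunits, *Atp6v1c2*, *Kit*, *Bsnd*, *Aqp6*, *Hbb-b1* and *Hbb-b2* were named after their values were seen. Some list members are not reported here. The genes and lists were chosen with earlier results of these data known.

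The alternatives were normexp (offset of 50) with loess, centring on the median after background subtraction (floor of 1), loess without background correction, the deposited ratios, the median over probes, marked spots kept, other limits on dim probes, each array alone, the methods' paired t-test over the arrays (threshold 0.1), and limma 3.58.1 in R 4.3.3 (threshold 0.05). Python 3.11.15 was used with matplotlib 3.10.9, scipy 1.17.1, pandas 2.3.3 and numpy 2.4.6, and the code was tested on simulated data. The number of arrays limits the precision.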

Additional observations from a re-analysis of the deposited data

How the results depend on the processing

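With background-subtracted signals centred on the median, 4 of the 10 genes had one direction on both arrays in place of 7: *Atp6v0a4*, *Slc26a4*, *Rhcg* and *Foxi1* were still lower on both, and *Slc4a1*, *Slc4a9* and *Rhbg* were slightly above 0 on array 1 (0.03, 0.09 and 0.03). The cause was not tested. The number was 7 under each other setting that used both arrays. Of these, only normexp with loess and loess without background correction changed the ratios of most of the 10 genes. The median over probes altered only *Slc4a9*. The deposited ratios, marked spots kept and other limits on dim probes repeated the main ratios, apart from rounding, so they could not change the number. On 1 array alone, the number past 2-fold was 0 without array 2 and 1 without array 1 (4.35% and 3.55% of all genes tested), and the number past 1.5-fold was 1 and 1 (16.9% and 12.9%), *Atp6v1b1* each time with opposite directions. The median over the 10 genes lay between -0.31 (without array 1) and -0.16 (without array 2), and between -0.21 and -0.18 under the settings with both arrays. With normexp and loess, the median of the other intercalated cell genes was -0.08 in place of -0.21, and on array 1 alone it was -0.04. On array 1 alone, the median of red blood cell genes was 0.19 and that of principal cell genes -0.27.

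The mean of *Atp6v0a4* stayed between -0.51 and -0.49 under the settings with both arrays. Among the 10 genes, the methods' t-test called 0 with the 2-fold limit (36 of all genes) and limma 0 at an adjusted p under 0.05 (0 of all genes). At an unadjusted p under 0.05, each called 0 of the 10 (486 and 256 of all genes), and at 0.1 the t-test passed 1 of the 10, *Atp6v0a4*, against 4.99% of all genes, with an adjusted p of 1. Both tests take the arrays as pairs or repeats and measure repeat labeling and not mice. Apart from this pairing by array, no fit with a replicate block could be made, since each genotype is 1 replicate.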
